A study of Rattus norvegicus with 30 samples.

Results

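The comparison described here set cultured rat hepatocytes exposed for 48 h to diisononyl phthalate (DINP) at 100 mM against cells of the same age given the vehicle alone. The members were taken by array title: 5 arrays of 100 mM at 48 h and 5 arrays of the vehicle at 48 h, 10 of the 30 arrays of the series, with every probe set that is not a control. DINP is a branched-chain phthalate ester used as a plasticiser, and the question put by the design is which transcripts it changes in liver cells. Phthalate esters are hydrolysed to monoesters that can activate PPARalpha, a nuclear receptor which binds DNA as a partner of RXR at a direct repeat of a short motif. In rat liver, PPARalpha ligands are known to raise the enzymes of fatty acid oxidation in peroxisomes, mitochondria and the endoplasmic reticulum, and to enlarge the peroxisome compartment.

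The cells were frozen hepatocytes of male Sprague Dawley rats, bought from a supplier, thawed, plated on collagen and covered with Matrigel. They received DINP at 100 mM in 1% DMSO, DINP at 25 mM in 1% DMSO, or 1% DMSO only, on day 3 of culture, and RNA was taken after 24 or 48 h. Each of the 6 groups has 5 arrays, 1 per well, and all groups share the frozen cells, the matrix and the DMSO. The labels call the wells independent cultures but do not give the donor animals, so that the p-values speak only of the spread among wells. The concentrations are given in mM as in the labels, with no means here of checking that unit. Hepatocytes kept as monolayers lose part of their liver character with time, which limits them as a model of the organ.

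Signals are linear MAS5 intensities in arbitrary units on Affymetrix rat arrays, scaled by the authors so that the 2% trimmed mean of each array lay near 1500.7. Differences are in log2(signal + 16), 100 mM minus vehicle, with limma's standard error after ±, and a gene is called where limma's adjusted p is under 0.05. Signal levels of different probe sets cannot be set against each other, so levels are compared only within a gene. In RNA from whole wells, fewer cells of a type and less RNA per cell cannot be told apart.

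The hepatocyte markers were bright in both groups: 9 of 10 had a probe set, and their summed signal was 679808 to 796099 on the 100 mM arrays and 641543 to 784890 on the vehicle arrays. Sums of different lists are not compared with each other. Summed over 11 macrophage markers the signal was 12901 to 13699 at 100 mM and 12676 to 15058 in the vehicle, and over 12 stellate and fibroblast markers it was 4030 to 4601 at 100 mM and 4407 to 5443 in the vehicle. Lrat, Ngfr, Col1a2 and Lum of the second list, and Cd163, Ptprc and Adgre1 of the first, lay below the dimmest tested mean in both groups. For 6 cholangiocyte markers the sums were 11553 to 13531 at 100 mM and 12794 to 15468 in the vehicle, and for 8 endothelial markers 1761 to 2492 at 100 mM and 1821 to 2386 in the vehicle. The 8 lymphocyte markers summed to 849 to 1302 at 100 mM and 1175 to 1447 in the vehicle, and 3 erythroid markers to 446 to 1476 at 100 mM and 591 to 1189 in the vehicle. Pecam1, Stab1, Vwf and Flt1 of the endothelial list, Krt7, Cftr and Spp1 of the cholangiocyte list, and Cd3d, Cd79b, Nkg7, Cd2 and Gzmb of the lymphocyte list also lay below that mean in both groups. Among all the markers of other cells, C1qb was called higher and Acta2 and Epcam were called lower, as given below.

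The 2 groups differed in one control. The 5S ribosomal RNA probe set, outside the genes tested, read 1661, 1929, 1807, 1613 and 1056 at 100 mM, against 992, 883, 736, 783 and 842 in the vehicle. Its log2 difference was 0.89, with an exact 2-sided permutation p of 0.00794, the smallest that 5 against 5 arrays allow, and an adjusted p of 0.0476 over 6 measures. The array median lay 0.10 lower at 100 mM on the log2 scale (exact permutation p = 0.0556, adjusted 0.111), and the poly-A spikes, hybridisation spikes and 3′ to 5′ differences of Actb and Gapdh had adjusted exact permutation p-values of 0.155, 0.429, 0.429 and 0.111. The part of these measures in the differences below was not tested. Replicate 1 of the vehicle stood apart from its group on 2.63% of probe sets, against 0.902% to 1.79% for the other 9 arrays, and results that change without it are given with and without it.

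Of 18625 probe sets tested, 2711 were called (14.6%), 1208 higher and 1503 lower at 100 mM. Taking the brightest tested probe set with a single symbol for each gene, 921 of 10604 genes were higher (8.69%) and 976 were lower (9.2%). Large changes leaned upward: 60 genes rose at least 2-fold and 31 fell at least 2-fold. In 1238 of the 1897 called genes, the 5 treated and the 5 vehicle arrays did not overlap, as in 1401 of all 10604 genes tested. The median difference over all tested genes was -0.062, and centring every array on its median raised all differences by 0.10 and changed the called probe sets to 1714 higher and 569 lower, so that 75.1% of calls were higher in place of 44.6%. With quantile normalisation the numbers were 1262 and 1180. Small differences are therefore to be read against that shift, while the named changes of 1 or more on the log2 scale are many times larger.

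**Figure D1:**
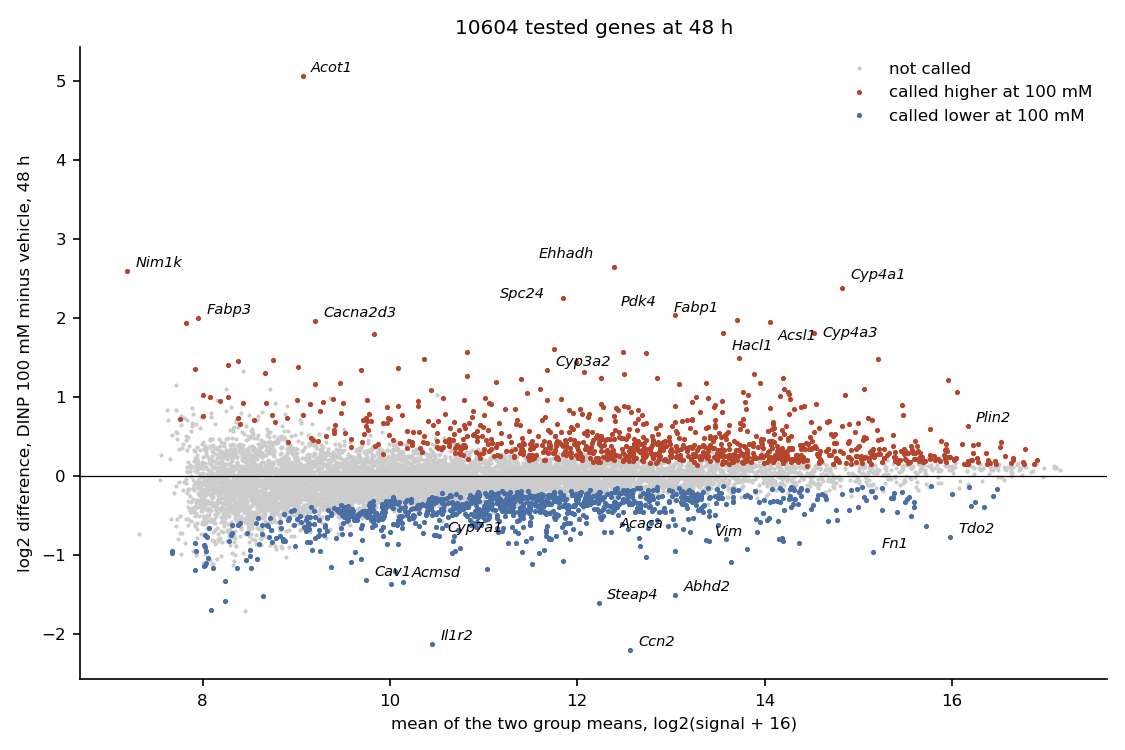
Log2 difference between DINP 100 mM and vehicle at 48 h (vertical axis) against the mean of both group means in log2(signal + 16) (horizontal axis), 1 point per tested gene, coloured by call. Acot1 stands alone at 5.06, Ehhadh (2.65) and Cyp4a1 (2.38) follow among the bright genes, and Ccn2 (-2.21) and Il1r2 (-2.13) are the lowest points.

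Genes of peroxisomal beta-oxidation rose nearly as a body. Of 27 tested members 22 were called higher and 1 lower, and the list median was 0.88, against -0.062 over all genes. Ehhadh, the bifunctional enzyme that carries out the hydration and dehydrogenation steps in peroxisomes, read 12266, 11466, 14106, 14696 and 15097 on the 100 mM arrays, against 2374, 1840, 2003, 2647 and 1906 in the vehicle, a 6.27-fold rise (2.65 ± 0.10, adjusted p = 6.64e-19). The lowest treated array was more than 4 times as bright as the highest vehicle array.

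Acsl1, which joins fatty acids to coenzyme A before they are oxidised or esterified, read 32161, 29932, 38458, 33004 and 34599 at 100 mM and 9948, 7352, 8114, 10414 and 7843 in the vehicle (1.95 ± 0.091, adjusted p = 3.59e-17). Hacl1, the lyase of peroxisomal alpha-oxidation, read 19849, 21536, 24220.1, 23872 and 23606 at 100 mM and 7610.2, 6164, 6559.8, 6546 and 5534 in the vehicle (1.80 ± 0.071, adjusted p = 6.64e-19). For both genes the groups were far apart, and the spread within a group was small beside the gap between them.

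Smaller but well separated rises followed in 4 other genes, not all of them enzymes of beta-oxidation itself. The thioesterase Acot8, which releases acyl groups inside peroxisomes, differed by 1.24 ± 0.09 (adjusted p = 2.13e-12). Ephx2, the soluble epoxide hydrolase, differed by 1.10 ± 0.049, with signals of 27025 to 28881 at 100 mM and 12289.6 to 14009 in the vehicle. Decr2, the peroxisomal dienoyl-CoA reductase needed for unsaturated chains, differed by 1.06 ± 0.043, with signals of 18921 to 20969 at 100 mM and 9270.2 to 9845 in the vehicle. Slc27a2, an acyl-CoA synthetase and transporter for very long chains, differed by 0.59 ± 0.048. In none of these 4 did the groups overlap. The single lower member of the peroxisomal beta-oxidation list was Hao2, a peroxisomal 2-hydroxy acid oxidase, at -0.93 (adjusted p = 1.42e-07), named after its value was seen.

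Peroxisome biogenesis moved less than the oxidation enzymes. Of 19 tested members 11 were higher and 1 lower, with a median of 0.26. Pex11a, which drives the elongation and division of peroxisomes, read 23049, 20018, 24809, 26000.5 and 21662 at 100 mM, against 12072, 12081, 12334, 12905 and 13812 in the vehicle (0.87 ± 0.071, adjusted p = 4.31e-11). Pex16 and Pex19, which insert membrane proteins into the organelle, differed by 0.70 ± 0.078 and 0.53 ± 0.099, and the membrane channel Pxmp2 by 0.44 ± 0.061. The lower member was Mpv17l at -0.41, also named after its value was seen.

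Promoter sequences are shown because a common receptor motif is known for the pathway. RefSeq promoters of assembly GRCr8, 250 bases before and 50 after each annotated start, were matched by gene ID for 114 of the 145 named genes. The motif searched on both strands was a pair of AGGTCA copies in the same orientation with 1 base between them, with up to 2 mismatches. A match stood in 3.71% of all 27457 promoters and in 2.87% of 8860 promoters of tested genes. It stood in 6 of 25 promoters of tested peroxisomal beta-oxidation members (24.0%), in 4 of 23 of mitochondrial beta-oxidation members (17.4%), in 6 of 25 of fatty acid uptake and binding members (24.0%), in 6 of 45 of genes at least 2-fold higher (13.3%) and in 0 of 24 of genes at least 2-fold lower. These lists share members, and a match is only a description of the letters. The pathway lists were chosen by name and hold genes known as targets of the receptor. Their shares therefore say nothing of the exposure. At a share of 2.87%, few or no matches would be likely in 24 promoters whatever their genes did. The promoters of 3 raised genes follow, with the match in capitals.
Fabp1, chr4:104749090-104749389, plus strand: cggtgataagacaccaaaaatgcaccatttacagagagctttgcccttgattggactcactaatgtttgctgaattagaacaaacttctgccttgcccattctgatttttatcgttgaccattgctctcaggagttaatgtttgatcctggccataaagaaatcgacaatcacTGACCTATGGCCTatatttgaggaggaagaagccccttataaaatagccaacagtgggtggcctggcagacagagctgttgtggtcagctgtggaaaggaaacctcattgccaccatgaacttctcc
Acot8, chr3:173962139-173962438, minus strand: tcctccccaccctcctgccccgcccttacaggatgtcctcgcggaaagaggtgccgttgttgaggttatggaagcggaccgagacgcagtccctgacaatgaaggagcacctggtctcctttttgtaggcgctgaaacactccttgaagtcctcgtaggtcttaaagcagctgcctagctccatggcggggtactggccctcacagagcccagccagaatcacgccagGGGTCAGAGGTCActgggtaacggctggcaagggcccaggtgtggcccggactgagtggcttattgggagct
Creb3l3, chr7:9273070-9273369, plus strand: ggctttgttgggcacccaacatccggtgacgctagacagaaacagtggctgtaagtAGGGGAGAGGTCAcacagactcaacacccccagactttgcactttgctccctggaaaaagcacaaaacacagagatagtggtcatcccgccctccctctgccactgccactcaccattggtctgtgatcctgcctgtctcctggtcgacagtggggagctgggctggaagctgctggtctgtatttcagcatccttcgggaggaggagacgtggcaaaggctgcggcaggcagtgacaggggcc
The capitals begin 77, 22 and 194 bases before the start, and hold 1, 1 and 2 mismatches. In Fabp1 the match reads on the opposite strand. Of the 11 named genes with a match, 10 had a higher mean at 100 mM and 1, Slc7a11, had a lower one. Named genes were chosen partly by their changes. The share of higher genes among all named genes with a promoter was not computed, so this split is not a result about the motif. The matched letters of 4 more of the raised genes were as follows, each written on the gene's strand, with the Nim1k match read on the opposite one.
Nim1k: TACCCTTTGACCT
Slc25a20: AGGTGAAAGGTCG
Asgr1: AGGTCACAGGGCA
Gys2: AGGTCAAAGGCCA
Acot1, Ehhadh, Acsl1, Pdk4 and Angptl4 had no match in this window.

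Mitochondrial beta-oxidation rose in the same cultures, with 22 of 27 tested members higher, 1 lower and a median of 0.60. Acaa2, the thiolase of the last step, read 96522, 94917, 94454, 106011 and 94157 at 100 mM, against 51136, 41288, 36608, 42202 and 40206 in the vehicle (1.21 ± 0.061, adjusted p = 3.21e-16). Eci1, which shifts double bonds into the position the pathway needs, differed by 1.06 ± 0.058, with signals of 92875 to 102278 at 100 mM and 42802 to 55129 in the vehicle. Every 100 mM array was brighter than every vehicle array for both genes.

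Cpt1a, the outer membrane carnitine transferase that controls entry, read 5291, 4444, 5153, 5058 and 5451 at 100 mM, against 4159, 2048, 2485, 2995 and 1819 in the vehicle (0.97 ± 0.14, adjusted p = 6.92e-06). The vehicle arrays were widely spread for this gene, and the brightest of them, replicate 1, lay just under the lowest treated array. Slc25a20, the carnitine-acylcarnitine carrier, differed by 0.93 ± 0.051, and Hadh, the short-chain dehydrogenase, by 0.90 ± 0.051. The single lower member was the carrier Slc25a29 at -0.84, named after its value was seen.

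Of 7 tested ketone body genes 3 were higher and 1 lower. Acat1, a mitochondrial acetoacetyl-CoA thiolase, differed by 1.03 ± 0.08, and Bdh1, which converts acetoacetate to 3-hydroxybutyrate, by 0.92 ± 0.10. Slc16a6, a ketone exporter, differed by 0.32 ± 0.074. Oxct1, the enzyme that uses ketones outside the liver, read 509, 498, 419, 419 and 332 at 100 mM and 568, 643, 713, 692 and 777 in the vehicle, without overlap (-0.63 ± 0.21, adjusted p = 0.0379). The call of Oxct1 was lost without any 1 of 100 mM replicates 3, 4 and 5 or vehicle replicates 2, 3, 4 and 5, and its adjusted p reached 0.105 over all alternatives. Ppara, the gene of the receptor PPARalpha, lay under the limit on dim probe sets and was not tested.

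**Figure D2:**
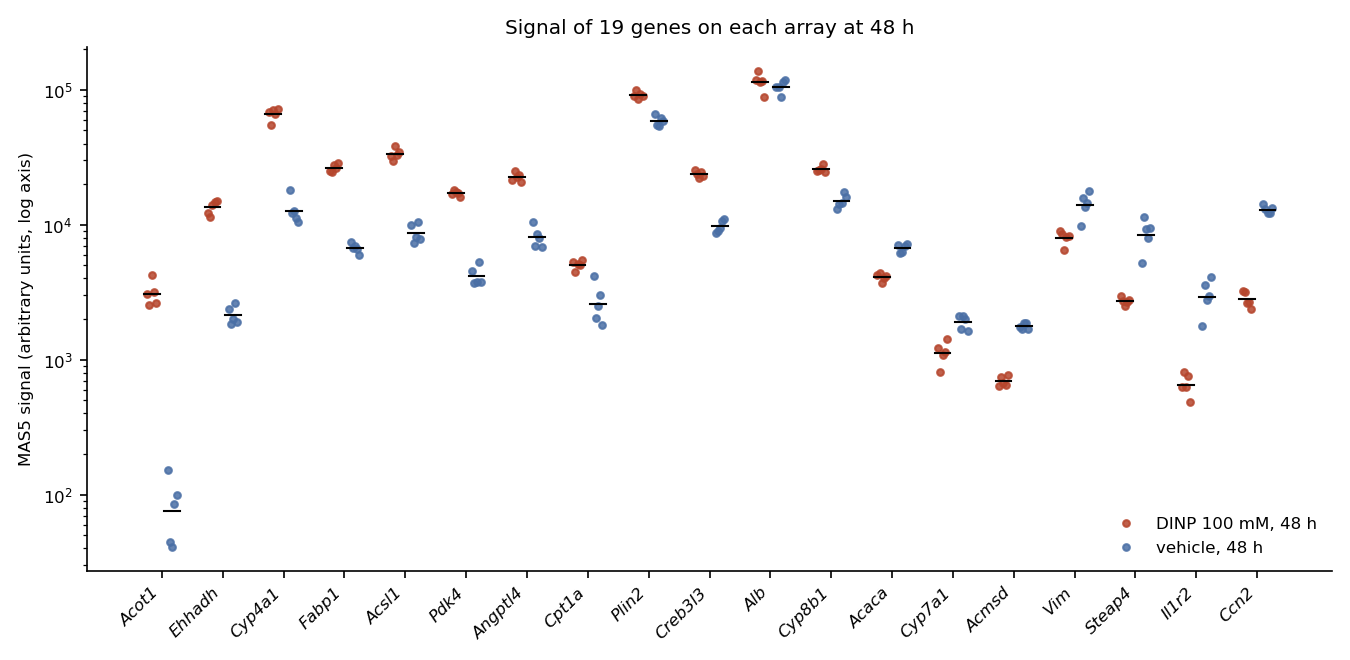
MAS5 signal on a log axis for 19 genes, 1 point per array, with 5 arrays of DINP 100 mM (left of each pair) and 5 of vehicle at 48 h and black bars at the geometric means. The pairs separate without overlap for every gene drawn except Alb.

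Fatty acid binding and activation held the largest rise of all. Of 28 tested members 17 were higher and 3 lower, with a median of 0.43. Acot1, a cytosolic thioesterase that cleaves long-chain acyl-CoA, read 3054, 2556, 4263, 3172 and 2639 at 100 mM and 153, 44.7, 41.1, 85.5 and 100.1 in the vehicle (5.06 ± 0.35, adjusted p = 6.28e-13). The vehicle mean lay below the dimmest tested mean, so the probe set passed the limit through the exposed cultures. A vehicle signal above background is not shown, and the size of the difference moved between 4.46 and 5.34 with the alternatives tried. Probes of the Acot family can bind each other's transcripts, so the member is uncertain.

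Fabp1, the main fatty acid carrier of hepatocyte cytosol, whose promoter is printed above, read 24948, 24527, 27739, 26319 and 28542 at 100 mM, against 7415, 6774, 6909, 6604 and 5934 in the vehicle (1.97 ± 0.078, adjusted p = 6.64e-19). Fabp3, the carrier of heart and muscle, read 327, 655, 563, 488 and 433 at 100 mM and 88.3, 239, 88.7, 81 and 92.8 in the vehicle (2.00 ± 0.45, adjusted p = 0.00173). Its vehicle mean was again below the dimmest tested mean, so a vehicle signal above background is not shown, and the difference ran from 1.65 to 2.26 over the alternatives. In Fabp3 1 vehicle array was well above the other 4 without reaching the treated ones. Cd36, a membrane fatty acid receptor, read 4496, 5461, 6129, 5905 and 7844 at 100 mM and 4947, 4108, 4264, 4138 and 3988 in the vehicle, with overlap (0.46 ± 0.14, adjusted p = 0.0286). The call of Cd36 was lost without any 1 of 100 mM replicates 3, 4 and 5 or vehicle replicates 2, 3, 4 and 5, with adjusted p-values up to 0.109. The 3 lower members were Fabp5, Acbd3 and Acsl4 at -0.37, -0.37 and -0.57, named after their values were seen.

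Genes of the lipid droplet rose with them: 15 of 23 tested members were higher and 1 was lower, with a median of 0.42. Hilpda, a droplet protein that restrains triglyceride lipase, read 12643, 12208, 12651, 11809 and 9241 at 100 mM, against 3219, 4189, 3704, 4344 and 4465 in the vehicle (1.55 ± 0.11, adjusted p = 7.38e-13). Plin2, the main droplet coat protein of hepatocytes, read 89774, 99245, 85827, 93114 and 90209.8 at 100 mM, against 66814, 54963, 54256, 62018 and 59254 in the vehicle (0.63 ± 0.056). The groups did not overlap in either gene. The carboxylesterase Ces1d, a hepatic triglyceride hydrolase, differed by 1.04 ± 0.092, and Fitm2, which helps to form droplets, by 0.86 ± 0.077. The lower member was Pnpla3 at -0.63, named after its value was seen.

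In glycerol and triglyceride metabolism 12 of 23 tested members were higher and 3 lower, with a median of 0.24. The glycerol channel Aqp7 differed by 1.31 ± 0.066, with signals of 5989.8 to 7102 at 100 mM and 2537 to 2837 in the vehicle. Gpd1 and Gpd2, the cytosolic and mitochondrial glycerol 3-phosphate dehydrogenases, differed by 1.10 ± 0.091 and 1.17 ± 0.11, and Dgat1, which adds the last acyl chain, by 0.87 ± 0.074. The lower members were Lpin1, a phosphatidate phosphatase, its relative Lpin3 and the glycerol channel Aqp9, at -0.63, -0.29 and -0.42, named after their values were seen. With arrays centred on their median 15 members were higher and 1 was lower.

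**Figure D3:**
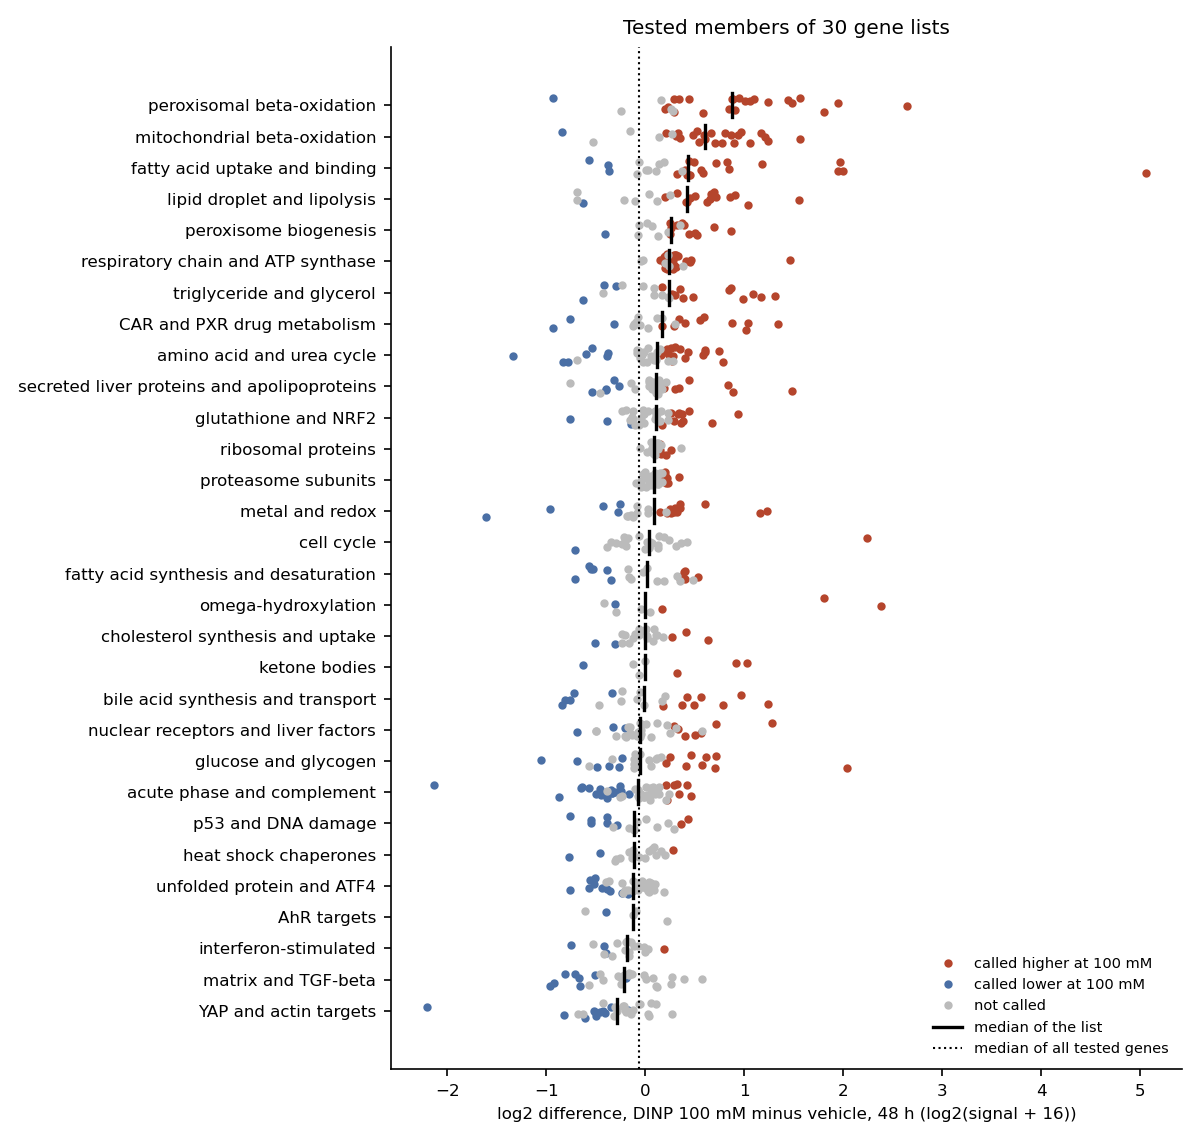
Log2 difference between DINP 100 mM and vehicle at 48 h for each tested member of 30 gene lists, coloured by call, with a black bar at each list median and a dotted line at the median of all tested genes (-0.062). The list medians run from 0.88 for peroxisomal beta-oxidation at the top to -0.29 for YAP and actin targets at the bottom.

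The omega-hydroxylases of the Cyp4a family, which oxidise the far end of fatty acids in the endoplasmic reticulum, rose strongly while the rest of that list did not. Cyp4a1 read 68766, 55059, 70464, 65817 and 72372 at 100 mM, against 18099, 12132, 12675, 11305 and 10466 in the vehicle (2.38 ± 0.11, adjusted p = 4.17e-17). Cyp4a3 read 41735, 42116, 44585, 45747 and 46376 at 100 mM, against 17024, 10921, 11417, 13511 and 10944 in the vehicle (1.81 ± 0.11, adjusted p = 1.26e-14). Neither gene overlapped between the groups, and replicate 1 was the brightest vehicle array in both. Of 8 tested members 3 were higher and 1 lower. The others called were Aldh3a2, a fatty aldehyde dehydrogenase, at 0.17 ± 0.058 and Cyp4f1 at -0.30 ± 0.09, with adjusted p = 0.0407 and 0.0191. The call of Aldh3a2 was lost without any single array other than 100 mM replicate 2 and vehicle replicate 1, and that of Cyp4f1 without 100 mM replicate 3 or 5 or vehicle replicate 5, with adjusted p-values over all alternatives up to 0.472 for Aldh3a2 and 0.29 for Cyp4f1. Probes of the Cyp4a family can bind each other's transcripts, and Cyp4a2 was not analysed here, having no single-symbol probe set among those tested.

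Drug metabolism genes known to answer to CAR and PXR gave 10 higher and 3 lower among 22 tested members, with a median of 0.17. Cyp3a2, a male-typical steroid and drug hydroxylase of the rat, read 5315, 3698, 6164, 5059 and 6260 at 100 mM, against 2491, 1976, 2149.8, 2105 and 1602 in the vehicle (1.34 ± 0.14, adjusted p = 9.5e-09). Its relative Cyp3a23-3a1 differed by 0.34 ± 0.053, on probe sets that may also bind other Cyp3a transcripts. Aldh1a1, a retinal dehydrogenase, differed by 1.02 ± 0.068, and the carboxylesterase Ces2c by 0.87 ± 0.063. Nr1i2, which encodes PXR, differed by 0.41 ± 0.07. Cyp2b1, a standard CAR target, was not analysed here for want of a tested probe set with a single symbol. The lower members were Cyp2c11, the male-specific hydroxylase, Abcb1a, a drug efflux pump, and Cyp2c23, at -0.93, -0.76 and -0.31, named after their values were seen.

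Beside 8.69% higher and 9.2% lower over all genes, 0 of 5 tested AhR targets were higher and 1 was lower. Cyp1a1, the best known of them, read 46513, 40241, 42704, 46702 and 44513 at 100 mM and 26683, 52412, 50112, 56522 and 58322 in the vehicle and was not called (-0.095 ± 0.11, adjusted p = 0.645). Replicate 1 of the vehicle was below every treated array while the other 4 were above all of them, and without it the difference was -0.30 with an adjusted p of 4.72e-05. Cyp1a2 was called lower at -0.40 ± 0.092 (adjusted p = 0.00226), with overlapping arrays, and not called after centring arrays on their median (-0.29, adjusted p = 0.0504).

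Glutathione and NRF2 genes gave 11 higher and 3 lower of 37, with a median of 0.11. The shares over all genes were 8.69% higher and 9.2% lower. The transferases Gstt3 and Gsta4 differed by 0.94 ± 0.096 and 0.68 ± 0.056, the microsomal Mgst3 by 0.44 ± 0.052 and the microsomal epoxide hydrolase Ephx1 by 0.37 ± 0.06. The lower members were the cystine carrier Slc7a11 at -0.76 ± 0.11, sulfiredoxin Srxn1 at -0.39 and the regulator Nfe2l2 at -0.15, the last 2 named after their values were seen. Among metal and redox genes 12 of 26 were higher and 5 lower. Pank1, which starts coenzyme A synthesis, differed by 1.23 ± 0.049, with signals of 26633 to 30539 at 100 mM and 11465 to 13555 in the vehicle. Vnn1, which breaks down pantetheine, differed by 1.16 ± 0.069, and the haem-binding Hebp1 by 0.35 ± 0.047. With quantile normalisation the higher and lower counts were 8 and 6 for the glutathione list and 7 and 6 for the metal and redox list.

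Steap4, a metalloreductase of the same list, was among the largest falls. It read 2961, 2733, 2499.5, 2685 and 2790.4 at 100 mM, against 5168, 11405, 9227, 7976 and 9494 in the vehicle (-1.61 ± 0.13, adjusted p = 6.17e-11). The treated arrays lay close together, whereas the vehicle arrays spread over more than a 2-fold range with replicate 1 the lowest.

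Synthesis of fatty acids was split. Of 21 tested members 5 were higher and 6 lower, and the median was 0.024. Acaca, the carboxylase that commits acetyl-CoA to synthesis, read 4263, 4377, 3719, 4011 and 4174 at 100 mM, against 7087, 6169, 6246, 6929 and 7165 in the vehicle (-0.71 ± 0.084, adjusted p = 1.09e-07). No array of one group reached the range of the other. Fasn, the synthase itself, was lower at -0.34 and Acly, which supplies cytosolic acetyl-CoA, at -0.56, both named after their values were seen. Scd, the delta-9 desaturase, was higher by 0.41 ± 0.064, and the elongation enzymes Hsd17b12 and Hacd2 by 0.54 ± 0.053 and 0.39 ± 0.066. Elovl6, an elongase, and Me1, malic enzyme, complete the higher members at 0.40 and 0.34, named after their values were seen. Without vehicle replicate 1 the list had 9 higher and 4 lower.

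Of 22 tested genes of cholesterol synthesis and uptake 3 were higher and 2 lower, with a median of 0.0008. Over all genes 8.69% were higher and 9.2% lower. Insig2, which holds back the sterol-regulated transcription factors, differed by 0.63 ± 0.10, and the synthesis enzyme Hsd17b7 by 0.41 ± 0.082. Sc5d, a sterol desaturase, was the other higher member, at 0.27, named after its value was seen. The lower members were squalene epoxidase, Sqle, at -0.51 ± 0.11 and the cytosolic thiolase Acat2 at -0.30 ± 0.071. With arrays centred on their median Acat2 was not called (-0.19, adjusted p = 0.123). Without vehicle replicate 3 the list had 4 lower, and centring the arrays on their median left 1.

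Bile acid genes moved both ways, 8 higher and 5 lower of 21. Cyp7a1, which opens the main route from cholesterol to bile acids, read 1211, 815, 1090, 1137 and 1423 at 100 mM, against 2103, 1702, 2107, 2009 and 1632 in the vehicle (-0.76 ± 0.17, adjusted p = 0.00231). Cyp8b1, the sterol 12alpha-hydroxylase that sets the kind of bile acid made, read 24898, 25598, 26046, 28292 and 24580.3 at 100 mM, against 13142, 14159, 14611, 17417 and 15938 in the vehicle (0.79 ± 0.08, adjusted p = 5.25e-09). The groups did not overlap for either enzyme, which moved in opposite directions. Nr1h4, the bile acid receptor FXR, differed by 0.57 ± 0.091, and the sterol exporter Abcg5 by 0.97 ± 0.13. Abcc2, the canalicular conjugate pump, was 1.79-fold lower (-0.84 ± 0.07, adjusted p = 4.9e-11), with signals of 14724 to 17872 at 100 mM and 25943 to 32703 in the vehicle. Akr1d1 and Cyp27a1, both of the synthesis pathway, and the phospholipid exporter Abcb4 were the remaining lower members, at -0.80, -0.33 and -0.72, named after their values were seen.

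Glucose genes gave 9 higher and 6 lower of 29, with a median of -0.055 and members running from -1.05 to 2.04. The members named here are all among the higher ones, and the 6 lower members are not named. Pdk4, the kinase that shuts off pyruvate dehydrogenase when fat is burned, read 16839.5, 18023, 17573, 17074 and 16127 at 100 mM, against 4519.8, 3692, 3739, 5276 and 3739.5 in the vehicle (2.04 ± 0.11, adjusted p = 2.06e-15). All treated arrays were more than 3 times as bright as the brightest vehicle array. Fbp1, of gluconeogenesis, differed by 0.71 ± 0.065, Gys2, liver glycogen synthase, by 0.62 ± 0.062, and Gckr, the glucokinase regulator, by 0.46 ± 0.063. The lower count was 3 with arrays centred on their median.

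Amino acid and urea cycle genes gave 18 higher and 7 lower of 44, with a median of 0.12. Over all genes 8.69% were higher and 9.2% lower. More of the lower members than of the higher ones are named here, although the higher ones are more numerous. Acmsd, which steers tryptophan breakdown away from NAD synthesis, read 642, 749, 675, 649 and 766 at 100 mM, against 1746, 1701, 1878, 1884 and 1695 in the vehicle (-1.34 ± 0.17, adjusted p = 3.9e-07). Tdo2, which opens the tryptophan ring and so stands at the head of the same route, read 44518, 44511, 52289.8, 51445 and 55558 at 100 mM, against 87433, 86268, 80982, 88357 and 80686 in the vehicle (-0.78 ± 0.072, adjusted p = 6.31e-10). Neither overlapped between the groups. Tat, tyrosine aminotransferase, differed by -0.83 ± 0.089 and Ass1, of the urea cycle, by -0.38 ± 0.063. On the higher side Uroc1, of histidine breakdown, differed by 0.79 ± 0.099 and Hgd, of tyrosine breakdown, by 0.75 ± 0.085.

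The respiratory chain rose by small steps in many members: 36 of 42 tested members were higher and 0 lower, with a median of 0.24. The differences ran from -0.037 to 1.46, so not every step was small. The complex I subunits Ndufc1, Ndufs7 and Ndufa9 differed by 0.45 ± 0.056, 0.41 ± 0.064 and 0.29 ± 0.048, and the complex IV subunit Cox7b by 0.31 ± 0.046. Ndufc1 read 39758, 41559.7, 38309.6, 39522 and 39398 at 100 mM, against 30054, 28616, 28311, 28766 and 29183 in the vehicle, so that even this small difference left the groups apart. These are bright transcripts, whose differences depend on the scaling of the arrays: with quantile normalisation 23 members were higher and the median was 0.15. Ribosomal protein genes, 5 of 25 higher with Rpl23, Rps15, Rpl19 and Rpl27 at 0.26 ± 0.064, 0.21 ± 0.057, 0.16 ± 0.048 and 0.15 ± 0.042, had 0 called with that scaling, 10 with arrays centred on their median, and between 2 and 8 when single arrays were left out. Rpl19 was not called without 100 mM replicate 2 (adjusted p = 0.0928) or vehicle replicate 3 or 4, nor Rpl27 without vehicle replicate 3 (0.0529). The fifth was Rps24 at 0.15, named after its value was seen. Proteasome genes, 8 of 32 higher with Psmb5, Psme2, Psmb3 and Psmb4 at 0.34 ± 0.078, 0.23 ± 0.057, 0.22 ± 0.056 and 0.21 ± 0.05, had 3 called with quantile normalisation, Psme2 not among them (0.13, adjusted p = 0.0768).

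Targets of YAP and of the actin cytoskeleton had the lowest median of the lists, -0.29, with 0 of 31 tested members higher and 11 lower. Ccn2, a secreted matricellular protein and a standard target of the YAP and TEAD pair and of TGF-beta, showed the largest fall of all genes. It read 3222, 3202, 2625, 2675 and 2362 at 100 mM, against 14292, 13002, 12148, 12162 and 13347 in the vehicle, 4.62-fold lower (-2.21 ± 0.096, adjusted p = 5.04e-18). The groups were narrow and far apart. Flna, the actin cross-linker filamin A, differed by -0.82 ± 0.15 with overlapping arrays, and the tropomyosin Tpm4, the junction protein Amotl2 and the smooth muscle actin Acta2 by -0.49 ± 0.077, -0.45 ± 0.096 and -0.52 ± 0.14. Acta2 is also a marker of stellate cells, whose summed signal is given above, and the part of such cells in this list was not tested. With arrays centred on their median the list had 6 members lower and a median of -0.18.

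The TEAD motif GGAATG, searched on both strands, stood in 13.9% of all promoters and in 11.3% of promoters of tested genes. It stood in 14 of 26 promoters of tested members of this list (53.8%). The list holds genes known as targets, so that share says nothing of the exposure. Of genes at least 2-fold lower 4 of 24 promoters held the motif (16.7%), and of genes at least 2-fold higher 3 of 45 (6.67%). The promoter of Ccn2 is printed because it holds 3 copies, in capitals, the first beginning 166 bases before the start.
Ccn2, chr1:22624565-22624864, minus strand: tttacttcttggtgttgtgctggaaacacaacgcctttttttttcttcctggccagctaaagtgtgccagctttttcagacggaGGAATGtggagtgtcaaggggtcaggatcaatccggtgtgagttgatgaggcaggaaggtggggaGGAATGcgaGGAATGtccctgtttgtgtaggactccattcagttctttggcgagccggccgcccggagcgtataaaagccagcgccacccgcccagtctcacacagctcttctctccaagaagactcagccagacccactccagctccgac

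Of 27 tested matrix and TGF-beta genes 0 were higher, 8 were lower and 19 were not called, with a median of -0.21. Some alternatives gave 1 higher, among them quantile normalisation, median centring and leaving out vehicle replicate 1. Fn1, fibronectin, read 26088, 26866, 24426, 29194 and 24748 at 100 mM, against 46769.6, 46439, 45918, 59906 and 57786 in the vehicle (-0.96 ± 0.089, adjusted p = 5.97e-10). Vim, the intermediate filament vimentin that hepatocytes gain in culture, read 8947, 8528, 6542, 8068 and 8235 at 100 mM, against 9821, 15796, 13591, 14512 and 17834 in the vehicle (-0.81 ± 0.11, adjusted p = 8.64e-07). Each treated array was below each vehicle array in both genes, by a narrow margin for vimentin, where replicate 1 was the lowest vehicle array. The cadherins Cdh1 and Cdh2 differed by -0.66 ± 0.10 and -0.67 ± 0.088. Cav1, the coat protein of caveolae, which is in neither list, differed by -1.31 ± 0.20 (adjusted p = 7.65e-06). Without vehicle replicate 1 the value for Cav1 was -1.58.

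Acute phase and complement genes gave 7 higher and 18 lower of 48, with a median of -0.068. Il1r2, the decoy receptor that binds interleukin 1 without signalling, read 629, 814, 629, 751 and 489 at 100 mM, against 1763, 3601, 2762, 2946 and 4073 in the vehicle (-2.13 ± 0.20, adjusted p = 5.74e-10). The vehicle arrays covered more than a 2-fold range, and all of them were at least 2 times as bright as the brightest treated array. A2m, a protease inhibitor of the rat acute phase, differed by -0.63 ± 0.084, and Fgb, a fibrinogen chain, by -0.16 ± 0.054. The call of Fgb was lost without 100 mM replicate 1 or 3 or vehicle replicate 2, 4 or 5, with adjusted p-values up to 0.744 over all alternatives. Mbl1, a lectin of complement, and coagulation factor F10 were higher, by 0.46 ± 0.06 and 0.42 ± 0.065. The count of lower members was 6 with arrays centred on their median, where the list median was 0.036, so the lean of this list as a whole turns with the scaling.

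No gene of the unfolded protein response was called higher. Of 35 tested genes of the unfolded protein response and ATF4, 0 were higher and 10 lower, with a median of -0.12. The stress regulator Nupr1 read 39837, 43938, 35726, 43472 and 40457 at 100 mM, against 66002, 58061, 54747, 51855 and 59776 in the vehicle (-0.51 ± 0.062, adjusted p = 2.06e-07). The chaperone Hsp90b1 of the endoplasmic reticulum differed by -0.43 ± 0.068 and the phosphatase subunit Ppp1r15a by -0.51 ± 0.14, both with overlap. Without 100 mM replicate 5 Ppp1r15a was not called (-0.42, adjusted p = 0.0528). The number lower was 4 after centring arrays on their median, and 6 without vehicle replicate 1, 100 mM replicate 4 or 100 mM replicate 5. Fgf21, a hepatokine known to answer to PPARalpha and to ATF4, read 1282, 1298, 1302, 1485 and 1404 at 100 mM and 3256, 1105, 1172, 1018 and 902 in the vehicle and was not called (0.043 ± 0.20, adjusted p = 0.927). One vehicle array, replicate 1, was above all treated arrays and the other 4 were below them, and without it the difference was 0.37, still not called.

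Among 17 p53 and DNA damage genes 2 were higher and 6 lower. Sesn1, a sestrin of the antioxidant response, differed by -0.76 ± 0.11 (adjusted p = 2.73e-06), Ccng1, cyclin G1, by -0.55 ± 0.075, and the kinase Plk2 by -0.54 ± 0.089. The higher members were Ephx1, given above, and Phlda3 at 0.43, named after its value was seen. The number lower was 3 after centring arrays on their median. Among 19 heat shock chaperones 1 was higher, Hspe1 at 0.29 ± 0.055, and 2 were lower, Dnajb4 at -0.77 ± 0.099 and the small heat shock protein Cryab at -0.46 ± 0.092. The heat shock counts are near the shares over all genes, 8.69% higher and 9.2% lower. The 6 lower of 17 p53 and DNA damage genes are above the latter share. The lower count of the heat shock list was 4 with quantile normalisation.

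Of 25 tested cell cycle genes 1 was higher and 1 lower, with 14 of the 39 on the array too dim to test. Across all genes 8.69% were higher and 9.2% lower. Spc24, a kinetochore subunit, read 7406, 7988, 9164, 8551 and 7025 at 100 mM, against 1305, 1554, 2078, 1930.2 and 1605 in the vehicle (2.25 ± 0.11, adjusted p = 3.61e-16). It stood far above the other members, since its partners in the same complex, Spc25 and Nuf2, differed by -0.06 and -0.21 and were not called, as seen after the values were known. Myc, a growth regulator, was lower at -0.71 ± 0.10, and Ccnd1, cyclin D1, was not called at 0.36 ± 0.13 (adjusted p = 0.0636), though with quantile normalisation it was, at 0.46 (adjusted p = 0.0179), and the list then had 3 members higher. Without 100 mM replicate 4 Ccnd1 was called too (0.47, adjusted p = 0.0157). Of 19 interferon-stimulated genes 1 was higher and 3 were lower, beside the same shares of 8.69% and 9.2% over all genes. Ifi27 was higher by 0.20 ± 0.048, and Irf9, Ifit2 and Ifit3 were lower at -0.40 ± 0.086, -0.42 ± 0.10 and -0.75 ± 0.25. The call of Ifit3 was lost without 100 mM replicate 2 or 5 or vehicle replicate 1, 2, 3 or 4, with adjusted p-values up to 0.147, and that of Ifi27 with quantile normalisation (0.070, adjusted p = 0.107).

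Nuclear receptors and liver transcription factors gave 7 higher and 3 lower of 33, beside 8.69% higher and 9.2% lower over all genes. Creb3l3, a liver transcription factor released from the endoplasmic reticulum that drives genes of fasting, read 25258, 23837, 22062, 24504 and 23057 at 100 mM, against 8649, 8993, 9467, 10736 and 10972 in the vehicle (1.29 ± 0.069, adjusted p = 1.22e-15). Rxrg, an RXR isoform, differed by 0.71 ± 0.097. The lower members were Ppargc1a, a coactivator of oxidative genes, Foxa2 and the glucocorticoid receptor Nr3c1, at -0.69, -0.33 and -0.20, named after their values were seen. The lower count was 5 without vehicle replicate 1 and 1 without vehicle replicate 3.

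Secreted proteins gave 7 higher and 5 lower of 32, beside 8.69% higher and 9.2% lower over all genes. Angptl4, a lipoprotein lipase inhibitor, read 21446, 24978, 22677, 23324 and 20875 at 100 mM, against 10408, 6954, 8499, 8028 and 6869.9 in the vehicle (1.49 ± 0.085, adjusted p = 5.5e-15). Its relative Angptl8 differed by 0.84 ± 0.093, the vitamin E binding protein Afm by 0.89 ± 0.067 and apolipoprotein Apoa2 by 0.44 ± 0.061. Apoa5, an activator of triglyceride clearance, was lower at -0.53 ± 0.06. The other lower members were Fetub, Igfbp1, Pon3 and Ahsg at -0.40, -0.40, -0.31 and -0.26, named after their values were seen. With arrays centred on their median the counts were 10 and 3. Alb, albumin, read 118003, 138489, 113529, 115438 and 89109.8 at 100 mM and 105252, 105512, 87922, 114293 and 118851 in the vehicle, with the groups overlapping (0.10 ± 0.099, adjusted p = 0.542). Asgr1, the asialoglycoprotein receptor and a hepatocyte marker, was higher by 0.65 ± 0.05. Of the 9 tested hepatocyte markers it was the 1 called higher, and 2 were called lower, Ass1 at -0.38 and Fgb at -0.16.

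Among the 12 largest rises and falls, several genes belong to no list. On the higher side, Cacna2d3, an auxiliary subunit of calcium channels, read 1058, 831, 1329, 1265 and 1308 at 100 mM, against 391, 269, 278, 259 and 230 in the vehicle (1.96 ± 0.17). Nim1k, a kinase related to AMPK, read 377, 403, 379, 221 and 374 at 100 mM and 11.7, 71, 89.7, 31.7 and 45.7 in the vehicle (2.59 ± 0.30). The open reading frame C2h4orf46 differed by 1.94 ± 0.39. In the last 2 the vehicle mean was below the dimmest tested mean, so that a signal above background is not shown there, and over the alternatives the difference ran from 1.89 to 2.80 for Nim1k and from 1.55 to 2.13 for C2h4orf46.

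On the lower side, the lipid hydrolase Abhd2 read 5536, 4785, 5058, 4956 and 4766 at 100 mM, against 19229.5, 12948, 11329.5, 13504 and 15433 in the vehicle (-1.50 ± 0.11, adjusted p = 1.51e-12). Ampd3, an AMP deaminase, differed by -1.37 ± 0.17, Cdr2 by -1.20 ± 0.15 and B4galt5, a galactosyltransferase of glycolipid synthesis, by -1.17 ± 0.13. The groups were apart in all of these, as the rule for picking the largest falls required. Cryaa, a lens crystallin, Prr15l and the aminopeptidase Xpnpep2 differed by -1.59 ± 0.37, -1.52 ± 0.46 and -1.19 ± 0.31, with treated means below the dimmest tested mean, so that a signal above background is not shown at 100 mM. Over the alternatives the difference ran from -1.79 to -1.23 for Cryaa, -1.69 to -1.30 for Prr15l and -1.31 to -0.89 for Xpnpep2. The call of Prr15l was lost without 100 mM replicate 3 (adjusted p = 0.0722) or vehicle replicate 4 (0.0561). C1qb, a complement chain made by macrophages, read 467, 305, 312, 585 and 341 at 100 mM and 178, 165, 136, 291 and 235 in the vehicle (0.94 ± 0.24, adjusted p = 0.00473), and Epcam, a cholangiocyte marker, differed by -0.22 ± 0.074 with overlap. The call of Epcam was lost without 100 mM replicate 2, 3 or 4 or any 1 of vehicle replicates 2 to 5, with adjusted p-values up to 0.481 over all alternatives. Of the 8 tested macrophage markers C1qb alone was called.

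The same 48 h vehicle arrays serve both doses, so the doses were compared directly. Between 100 and 25 mM at 48 h, 1 of 10604 genes was called higher (0.00943%) and 0 lower (0%) by limma, with 813 genes at an unadjusted p under 0.05 and 0 to 4 probe sets called when single arrays were left out. The gene was Fam3c, a secreted protein, which read 5655, 4523, 5135, 5284 and 5469.7 at 100 mM, 3761, 3728, 3977, 3101 and 3679.6 at 25 mM and 6803, 6189.9, 6175, 6527 and 6850.2 in the vehicle. Its 100 mM arrays lay between those of 25 mM and of the vehicle without overlap (difference between the doses 0.51 ± 0.084, adjusted p = 0.016).

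For the genes with the largest responses, intervals of the difference limit how far apart the 2 doses can be. The difference of 100 minus 25 mM was -0.16 (-0.37 to 0.046) for Ehhadh, -0.12 (-0.35 to 0.10) for Cyp4a1, -0.092 (-0.25 to 0.068) for Fabp1 and 0.0042 (-0.22 to 0.23) for Pdk4, as log2 values with 95% intervals. It was -0.47 (-1.18 to 0.24) for Acot1, the widest of these. Among the lowered genes it was 0.28 (0.083 to 0.47) for Ccn2, 0.29 (-0.11 to 0.69) for Il1r2, 0.16 (-0.11 to 0.44) for Steap4 and -0.11 (-0.46 to 0.23) for Acmsd. The interval of Ccn2 leaves out 0, but its adjusted p was 0.528. Of the 1897 genes called against the vehicle, 1863 had an interval of the dose difference wholly within 1 of 0 and 1719 within 0.5, and its bounds lay a median of 0.17 to either side of the estimate. A p-value above the limit does not show that the doses act alike. No gene list had a member called between the doses.

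Against the vehicle, the values at 100 and at 25 mM stood side by side as follows. By limma, 1037 genes were called higher and 1286 lower at 25 mM, beside 921 and 976 at 100 mM. At least 2-fold, the numbers were 94 and 44 at 25 mM, beside 60 and 31 at 100 mM. Such counts are not a test between the doses. Peroxisomal beta-oxidation had list medians of 0.88 at 100 mM and 0.88 at 25 mM, and mitochondrial beta-oxidation 0.60 and 0.66. YAP and actin targets had -0.29 and -0.27. Cyp1a2 was -0.40 at 100 mM and -0.036 at 25 mM, Cryaa -1.59 and -0.44, and Uroc1 0.79 and 1.11, none of which passed the test between the doses (adjusted p = 0.257, 0.502 and 0.445).

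**Figure D4:**
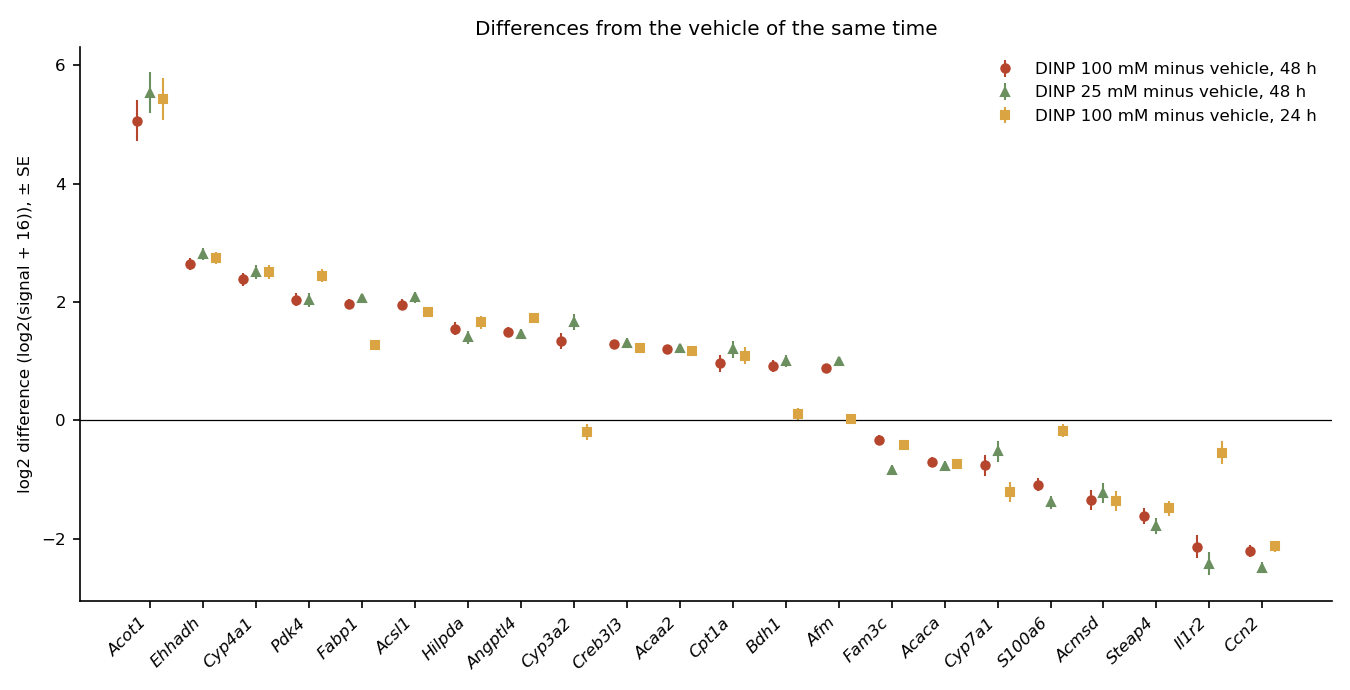
Log2 difference from the vehicle of the same time for 22 genes, with ± SE bars, for DINP 100 mM at 48 h (circles), 25 mM at 48 h (triangles) and 100 mM at 24 h (squares), 5 arrays a group. Circles and triangles lie close together for most genes, while the squares of Cyp3a2, Bdh1, Afm, S100a6 and Il1r2 lie near 0 or between 0 and the other symbols.

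The 24 h cultures have vehicle arrays of their own. At 24 h, 800 genes were higher (7.54%) and 744 lower (7.02%) at 100 mM. Of the 921 genes higher at 48 h, 595 were also called higher at 24 h, which is 64.6% of the later and 74.4% of the earlier list. Of the 976 lower at 48 h, 443 were also lower at 24 h, or 45.4% and 59.5%. In each direction 0 genes were called the opposite way at 24 h. A gene called at only one time is not shown to differ between the times.

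The test of that difference, the effect at 48 h minus the effect at 24 h, called 9 genes higher (0.0849%) and 3 lower (0.0283%). Cyp3a2 read 5315, 3698, 6164, 5059 and 6260 at 100 mM and 2491, 1976, 2149.8, 2105 and 1602 in the vehicle at 48 h, and 4038, 5889.6, 5599, 6099.6 and 4241 at 100 mM and 4766, 6209, 7415, 5872 and 5239 in the vehicle at 24 h (effect difference 1.54 ± 0.20, adjusted p = 8.66e-05). The exposed arrays of both times overlapped, and the 48 h vehicle arrays alone lay below all the others. Afm, the binding protein named above, differed between the times by 0.85 ± 0.095 (adjusted p = 5.42e-06). Its effect was 0.89 at 48 h and 0.032 at 24 h.

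For Fabp1 the exposed arrays of 48 h lay above those of 24 h. It read 19277, 20414, 18265, 20353 and 17686 at 100 mM and 7396, 8608, 8953, 7165 and 7554 in the vehicle at 24 h, against the 48 h values given above (effect 1.97 at 48 h and 1.28 at 24 h, difference 0.70 ± 0.11, adjusted p = 0.00311). Bdh1 had an effect of 0.92 at 48 h and 0.11 at 24 h (difference 0.80 ± 0.14, adjusted p = 0.00845). Ly6i, a surface protein of the Ly6 family, the carboxylesterase Ces2c and the apolipoproteins Apon and Apoa2 differed by 0.56 ± 0.11, 0.49 ± 0.089, 0.50 ± 0.087 and 0.44 ± 0.086. The ninth, the ornithine carrier Slc25a15, was lower at both times, at -0.29 at 48 h and -0.66 at 24 h, and is named after its values were seen.

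The fall of Il1r2 was larger in the later cultures. At 24 h it read 1569, 2406, 3205, 3087 and 2459 at 100 mM and 4353, 3168, 3723, 4373 and 2733 in the vehicle, with overlap, and its effect was -2.13 at 48 h and -0.54 at 24 h (difference -1.59 ± 0.28, adjusted p = 0.00831). S100a6, a calcium-binding protein, read 10274, 9929.8, 8532, 8098 and 7441 at 100 mM and 15716, 20791, 19177, 16291 and 22193 in the vehicle at 48 h, and its effect was -1.09 at 48 h and -0.17 at 24 h (difference -0.91 ± 0.16, adjusted p = 0.00831). The antimicrobial peptide gene Defb1 had -0.17 at 48 h and 0.37 at 24 h (difference -0.54 ± 0.10). By contrast Ccn2 had -2.21 and -2.13, Ehhadh 2.65 and 2.75, and Acot1 5.06 and 5.43, with adjusted p-values of the difference of 0.97, 0.97 and 0.967. Without vehicle replicate 1 of 48 h the difference between the times called 16 probe sets higher and 5 lower.

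**Figure D5:**
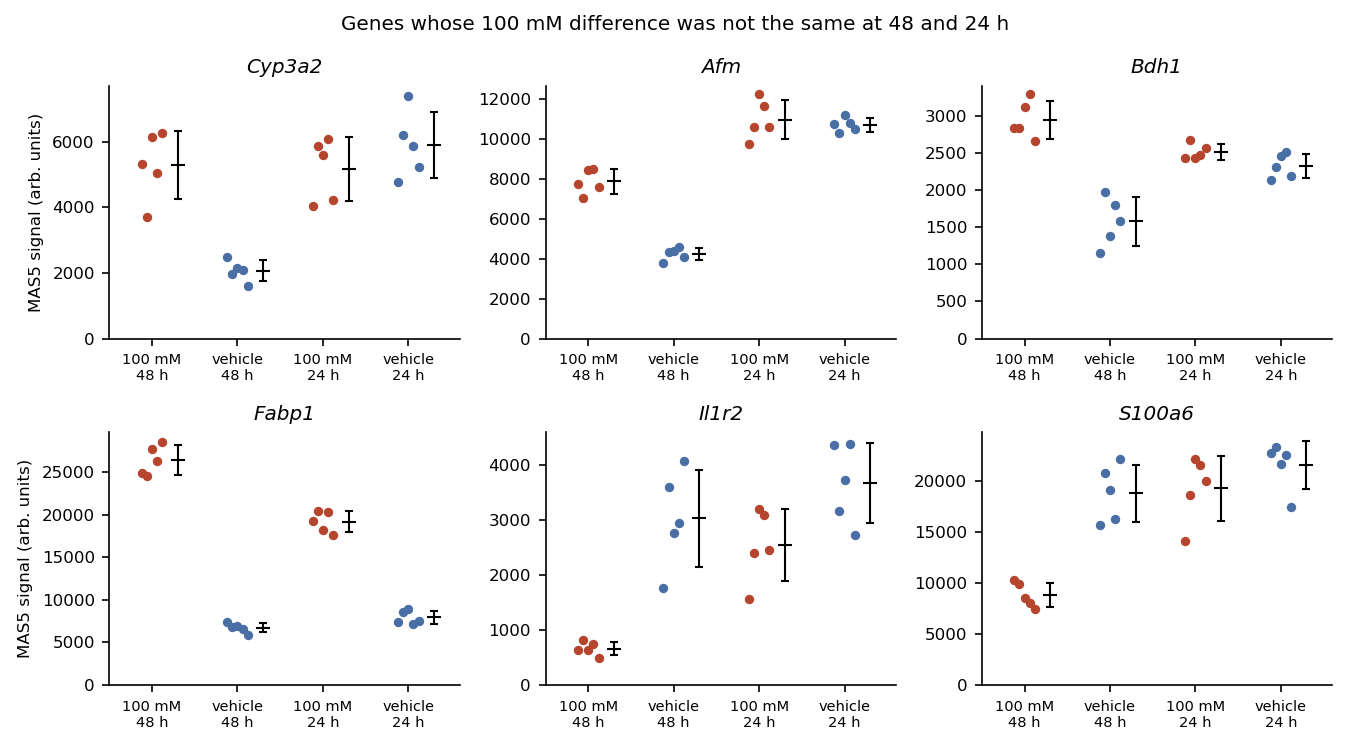
MAS5 signal of 6 genes whose effect differed between 48 and 24 h, 1 point per array, with the mean ± SD of 5 arrays beside each group, for 100 mM and vehicle at 48 h and then at 24 h. In Cyp3a2, Afm and Bdh1 the vehicle cultures of 48 h are the lowest group, and in Il1r2 and S100a6 the 100 mM cultures of 48 h are the lowest.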

How the data were processed

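Biotin-labelled cRNA of the 30 wells was put on Affymetrix rat arrays, per the labels' protocols. The authors deposited 1 linear signal intensity for each probe set on each array, computed by MAS5 according to the submitters' processing notes. Its version is not given in the sources used here. The table holds 31099 probe sets and no detection calls, and no 2 arrays held identical values.

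From these values log2(signal + 16) was computed, which understates changes of dim genes. The 57 control probe sets were dropped, and the 18625 of 31042 probe sets whose mean reached the 40th percentile (7.956) entered the tests. Names came from the platform annotation, updated through the Entrez ID for 20758 probe sets. Of the 31042, 20826 had 1 symbol, 436 several and 9780 none. A gene is its brightest tested probe set with 1 symbol (10604 genes, 2730 with more than 1 such probe set). The probe sets of Fkbp8 and Tor1aip2 were called in opposite directions. Related genes can share probes.

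limma 3.58.1 in R 4.3.3 fitted 6 group means over all 30 arrays (24 residual degrees of freedom), with a variance trend and Benjamini-Hochberg adjustment over the tested probe sets. Adjusted p-values of limma are over all of them. Confidence intervals are at 95%. Control measures had exact permutation tests with 252 regroupings. The procedure was tested on simulated data with independent noise for each probe set. Those data held no shift of whole arrays and no array standing apart, so that test does not cover such features. The precision is limited by 5 arrays a group.

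Members and gene lists were chosen with earlier results of these data known, so they give no independent support. Named genes are the 12 largest rises and 12 largest falls without overlap, up to 4 members of each list with the smallest adjusted p, 30 genes fixed by name (not all are reported here), and, for the dose and time contrasts, the called genes with the largest differences, up to 8 in each direction. Alternatives were another constant, filter, scaling, set of arrays, variance prior, array weights, the array round as a block, another probe set rule for lists, and leaving out single arrays.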

Additional observations from a re-analysis of the deposited data

Results flagged for a closer look

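Among 146 genes and controls, each with its 100 mM and its vehicle arrays at 48 h (292 groups of 5), 20 groups had 1 array far from the other 4, or 6.85%, where chance gives about 1 in 20. Vehicle replicate 1 was that array in 9 of them. It was high for Fgf21 at 3256, Gpd1 at 34081, Ces1d at 16326 and Plk2 at 6238. It was low for Cyp1a1 at 26683, Angptl8 at 12244, Cdh2 at 8766, Hsp90b1 at 26114 and Ppp1r15a at 1779. The other vehicle cases were Abcg5 at 341 in replicate 4, Cox7b at 60051 in replicate 2 and Fabp3 at 239 in replicate 2.

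At 100 mM, replicate 5 was low for Aqp7 at 5990, Hilpda at 9241 and Uroc1 at 5239.8, replicate 3 for Gsta4 at 29735 and Sesn1 at 2004, and replicate 4 for Nim1k at 221. Acaa2 was high at 106011 in replicate 4 and Rpl23 at 77524 in replicate 2.

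The effect of 100 mM differed between 48 and 24 h by the test of that difference for 12 genes. On the log2 scale, 48 h minus 24 h, it was 1.54 for Cyp3a2, 0.85 for Afm, 0.80 for Bdh1, 0.70 for Fabp1, 0.56 for Ly6i, 0.50 for Apon, 0.49 for Ces2c, 0.44 for Apoa2 and 0.37 for Slc25a15. It was -0.54 for Defb1, -0.91 for S100a6 and -1.59 for Il1r2.

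Outside the genes tested, the 5S ribosomal RNA control was higher at 100 mM than in the vehicle at 48 h by 0.89 on the log2 scale, above all 5 vehicle arrays.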

How the results depend on the processing

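Between 100 mM and vehicle at 48 h, 1047 to 1250 probe sets were higher and 1197 to 1575 lower when single arrays were left out. Of the other alternatives, only centring each array on its median moved a count by over 1.5 times, to 569 lower. The cause was not tested beyond the shift that centring makes. Between the doses, the number higher was 0 with only the groups compared or with no variance trend, 2 with the array round as a block, and 0 to 4 without single arrays, while the number lower was 0 throughout. For the effect at 48 h minus that at 24 h, the number lower was 5 with a constant of 64, 6 with a filter at the 60th percentile, 12 with quantile normalisation and 6 with array weights, which gave 19 higher. Without single arrays it was 7 to 16 higher and 3 to 7 lower, the 16 without vehicle replicate 1 of 48 h. The causes were not tested. Of 145 named genes, 124 stayed on their side of the threshold under every alternative, and over 2890 gene and setting pairs 84 lost a call, 6 gained one and in 0 did a called difference change sign. The uncalled differences of Alb, Fgf21 and Cyp1a1 did change sign under some alternatives. The labels give no replicate numbers, but the array numbers in the titles form rounds with 1 array of each group, and the round as a block gave 1229 higher and 1553 lower. Signals under the dimmest tested mean are not shown to be above background, since no detection calls were used.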

Other observations

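The 5S ribosomal RNA control was higher in the DINP groups at both times. Its mean signal was 1845 at 25 mM and 48 h, 2143 at 100 mM and 24 h, and 2160 at 25 mM and 24 h, beside 1037 in the vehicle at 24 h. These are given as values, and their part in any gene's difference was not tested.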
